A study of Mus musculus with 12 samples.

Results

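The histone genes examined here are the 69 gene symbols, of 40853 in the count tables, that begin with H1f, H2ac, H2bc, H3c or H4c followed by a number. They comprise 11 linker histone genes (H1f) and 58 core histone genes, of which 17 encode H2A (H2ac), 17 H2B (H2bc), 12 H3 (H3c) and 12 H4 (H4c). The genes were chosen by symbol, and the set was selected on measured values too, since H2ac7, H3c14 and H2ac13 had appeared among unstable calls between genotypes in these same libraries. The genotype comparison is therefore described by its values, and nothing is read from calls made in it.

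Microglia, the resident macrophages of the brain, and astrocytes were sorted by flow cytometry from whole brains of 6 mice aged 8 to 9 weeks. Every mouse had received lipopolysaccharide (LPS, from the outer membrane of bacteria, an inducer of inflammation) intraperitoneally at 1 mg/kg, 20 h before dissection, so no untreated group enters these comparisons. Of the 6 animals, 3 were wild type (WT) and 3 were labelled as knockouts (KO) of Kpna4, which encodes the nuclear import receptor importin α4. Each animal gave 1 microglia and 1 astrocyte library, which makes 4 groups of 3 libraries. Kpna4 itself was read at 40.1 to 96.4 CPM (read counts scaled to the library total) over all 12 libraries, with overlapping values in both genotypes. Counts cover all of Kpna4, and which stretch was deleted is not stated in the labels, so the labels cannot be checked in this way. KO below means the libraries labelled KO.

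Nucleosomes are built from H2A, H2B, H3 and H4, while linker histone H1 binds where DNA enters and leaves the nucleosome. Most genes of these families lie in clusters, are transcribed mainly while a cell copies its DNA, and yield mRNAs that end in a short stem-loop in place of a poly(A) tail. The stem-loop is bound by the protein SLBP, and the RNA is cut a few bases downstream. Some of the same genes can also give longer, polyadenylated transcripts in cells that do not divide. The libraries were made with a full-length cDNA kit that primes on poly(A), so the reads show what that priming recorded of these RNAs. The amount of stem-loop RNA in the cells was not measured apart from it. RNAs without a poly(A) tail were read as well. Summed, 5 of them, named below, came to 34912 to 65935 CPM in microglia and 35061 to 124992 CPM in astrocytes. Histone reads therefore need not come from polyadenylated forms.

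By RefSeq coordinates (GRCm38.p6), 53 of the 67 matched genes lie on chromosome 13 and 10 on chromosome 3. H1f8 and H1f10 lie on chromosome 6 and H1f0 and H1f7 on chromosome 15, outside both clusters. The name clustered histone genes thus holds for the other matched genes and not for these 4. H1f9 and H2bc24 were not matched, so their place is not given. The stem-loop was looked for by its form, a stem of 6 base pairs (G with T allowed) around a loop of 4 bases. The stem opens with GG and closes with CC, its pair next to the loop is T with A, and the third loop base is T. This form was found in the GENCODE M21 transcripts of 42 of 66 matched histone genes, against 337 of 21877 protein-coding genes (1.54%). Many of the remaining 24 models stop at or near the end of the coding sequence, so a missing match says only that these letters are not in the model. The stem-loops of the genes on which the results turn are given here because they are the element that sets these RNAs apart, with the 4-base loop in capitals.
H1f2, H1f3, H1f4: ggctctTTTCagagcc
H2ac7, H2ac18: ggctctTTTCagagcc
H2ac20: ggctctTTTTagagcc
H3c6: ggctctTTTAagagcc
H4c8, H4c4: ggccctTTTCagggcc
H4c1: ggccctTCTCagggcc

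The H4 genes shown share a stem, and so do the others shown. Part of the stem and loop was fixed by the search, and what followed the loop differed more than the loop did. The annotated transcript went on for 35 bases after the stem-loop in H2ac18 and for 42 in H2ac7. It went on for 840 bases in H1f2, 1153 in H1f4, 4884 in H1f3, 1861 in H2bc6 and 770 in H4c4. No stem-loop was found in the models of H1f0, H1f10 and H2bc21, nor in that of H2bc4.

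The copies resemble each other closely, which limits what can be said of single genes. RSEM, which made the deposited values, divides reads that fit several genes among them, and such division leaves values that are not whole numbers. Of the 684 histone values above 0, 497 (72.7%) lay more than 0.001 from a whole number, against 4.29% of the values of all other genes. The share was 25.3% among H1f genes and between 75.4% and 84.5% in the core histone classes. H2ac19 shared all of its 50-base words with H2ac18, H4c17 and H4c18 shared 89.8%, and H2ac12 and H2ac7 shared 87.4% (share of the gene with fewer words). H2bc23 and H2bc24 held equal values in 10 libraries. Values of these genes are uncertain one by one. Sums are given for genes that share at least 80% of their words, for H3c14 with H3c15 and for H2bc23 with H2bc24. Other genes described below share sequence too and were not summed, so their single values carry the same uncertainty. Among them, H2ac10 shares 79.7% of its words with H2ac7, H4c12 71.1% with H4c1 and H3c6 63.2% with H3c7.

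Libraries held 10319842 to 15575662 counts. The sorted types matched their markers, since 8 of 8 microglia markers were higher in the microglia libraries and 8 of 8 astrocyte markers in the astrocyte libraries by edgeR's quasi-likelihood test. Summed oligodendrocyte markers reached 276 to 1731 CPM in microglia and 854 to 3990 CPM in astrocytes, and neuronal markers 14.4 to 37.8 and 342 to 447 CPM. Markers of oligodendrocyte precursors came to 3.10 to 11.3 and 82.4 to 118 CPM, and those of choroid plexus to 341 to 2119 and 446 to 1030 CPM. Endothelial markers summed to at most 71.3 and 99.7 CPM, erythroid markers to 32.7 to 82.3 and 24.5 to 128 CPM and leukocyte markers to 3.68 to 23.4 and 2.67 to 12.5 CPM, with Cd3e at 0 in all 12 libraries. The part of such cells in the histone values was not tested. A group of 8 abundant non-coding RNAs took 11.8 to 15.4% of the counts of microglia and 26.2 to 39.5% of those of astrocytes, which lowers every CPM value in astrocytes.

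Histone reads took a larger share of the microglia libraries than of the astrocyte libraries. Summed over the 69 genes, they came to 1918, 1963 and 1425 CPM in microglia WT 1 to 3 and to 2631, 2664 and 1612 CPM in microglia KO 1 to 3. In astrocytes they came to 877.5, 889.2 and 520.2 CPM in WT and to 900.1, 1205 and 758.3 CPM in KO. The ranges of the cell types did not overlap, and within both cell types and both genotypes the third library was the lowest. Per animal the sum was 2.40 ± 0.341 times as high in microglia as in astrocytes (SD, n = 6). It was 1.996 times as high when library totals were scaled by TMM, and 1.95 times when the abundant non-coding RNAs were left out of the totals. These sums over genes chosen with results in view carry no test, and in bulk libraries fewer cells of a type and less RNA per cell cannot be told apart.

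The classes took part unequally. Linker histone reads were 3.32 ± 0.406 times as high in microglia, H2bc reads 2.24 ± 0.651 times, H2ac reads 2.08 ± 0.528 times, H3c reads 1.85 ± 0.475 times and H4c reads 1.36 ± 0.419 times (mean of the ratio per animal ± SD, n = 6). For H4c the ratio ran from 0.915 to 1.90, so not every animal had more H4 reads in microglia. The mix of transcripts changed as well. H1f2, H1f3 and H1f4 together made up 43.7% ± 6.10 of the histone reads in microglia and 21.7% ± 2.94 in astrocytes (SD, n = 6), whereas H1f0 made up 2.15% ± 0.854 and 10.4% ± 1.64. H2ac18 took 14.3% ± 2.09 and 18.9% ± 3.77, and H2bc4 9.90% ± 4.16 and 10.7% ± 1.56. These are shares of reads and are not corrected for transcript length.

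**Figure D1:**
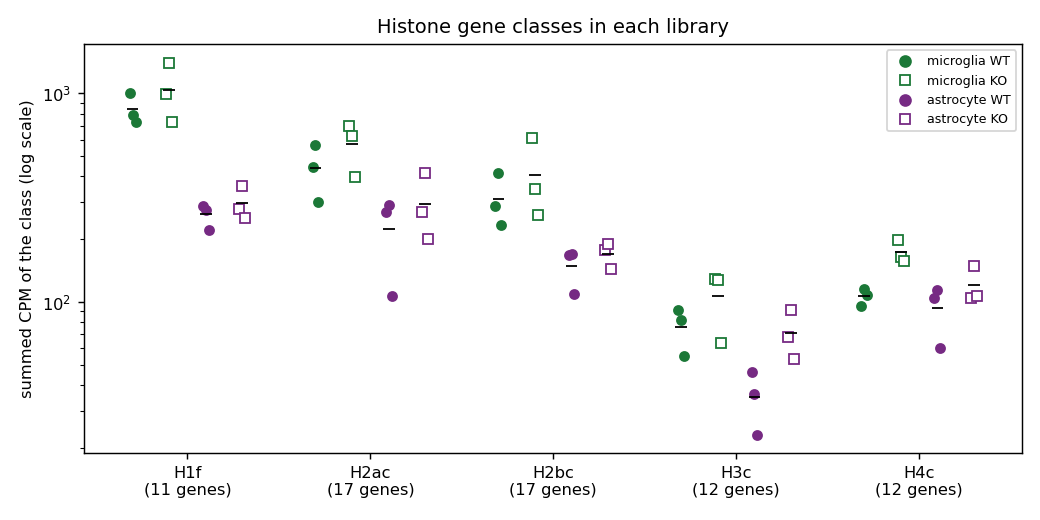
Summed CPM of each histone class (y axis, log scale) in the 12 libraries, with circles for WT, squares for KO, green for microglia, purple for astrocytes and a line at the mean of each group of 3. The H1f class stands apart between cell types, at 726 to 1404 CPM in microglia and 221 to 360 CPM in astrocytes, while the H4c ranges overlap.

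Between microglia and astrocytes, 21 histone genes were higher in microglia and 5 were higher in astrocytes. The test was edgeR's quasi-likelihood test on rounded estimated counts of all 12 libraries, called at a Benjamini-Hochberg adjusted p under 0.05 over 17294 genes. The 26 calls are 41.9% of the 62 histone genes that passed the filter on low counts, against 64.6% of all genes tested. The share called higher in microglia was 33.9% (28.2% of all genes), and that called higher in astrocytes 8.06% (36.4% of all genes). Without a filter on low counts the latter count was 10 of 66 (24.3% of all genes). The median log2 fold change was 0.77 over the histone genes tested and -0.19 over all genes. The other 7 genes were not tested. H1f8, H2ac1 and H2bc1 had no counts in any library, H1f7, H1f9 and H3c8 had counts in 2 or 3 libraries, and H3c14 in 2.

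By class, 4 H1f genes were higher in microglia, 2 higher in astrocytes and 2 not called. Among H2ac genes, 7 were higher in microglia and 1 in astrocytes, with 8 not called, and among H2bc genes 5 and 1, with 10 not called. Of the H3c genes, 2 were higher in microglia and 8 were not called, and of the H4c genes 3 were higher in microglia, 1 was higher in astrocytes and 8 were not called.

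The linker histones split in both directions. H1f3, which encodes histone H1.3, ran from 86.3 CPM through a median of 142 to 295 CPM in the 6 microglia libraries, and from 7.24 through 10.99 to 18.4 CPM in the 6 astrocyte libraries. Every microglia library was thus above every astrocyte library, and the log2 fold change was 3.44 (SE 0.33, adjusted p = 3.03e-07, edgeR). H1f2, which encodes H1.2, ran from 273 through 465 to 629 CPM in microglia and from 76.8 through 96.1 to 119 CPM in astrocytes. Its log2 fold change was 1.91 (SE 0.24, adjusted p = 5.5e-06, edgeR), again with no overlap. H1f4, the gene of H1.4, ran from 220 through 247 to 434 CPM and from 51.1 through 73.7 to 100.3 CPM, which is a log2 fold change of 1.61 (SE 0.22, adjusted p = 1.49e-05, edgeR). All 3 genes were higher in microglia in 6 of 6 animals.

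H1f0 and H1f10, which lie outside the clusters, went the other way. H1f0 encodes H1.0, a replacement linker histone known from cells that have left the cell cycle. It ran from 24.7 through 37.8 to 70.3 CPM in microglia and from 69.3 through 88.1 to 109.8 CPM in astrocytes, with a log2 fold change of -1.36 (SE 0.25, adjusted p = 2.88e-04, edgeR). The ranges met only at their ends, and H1f0 was lower in microglia in 6 of 6 animals. H1f10, the gene of H1.10, was at 0 to 1.66 CPM in microglia and 2.09 to 10.2 CPM in astrocytes, with a log2 fold change of -3.68 (SE 0.79, adjusted p = 8.54e-04, edgeR). It was the only histone gene whose astrocyte libraries all lay above its microglia libraries. In the other direction 15 genes showed no overlap (24.9% of all genes, and 21.7% in the direction of H1f10). In all, 25.8% of the histone genes tested did not overlap between the cell types, against 46.5% of all genes tested.

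H1f6, the testis linker histone H1t, was called higher in microglia, but at 0.502 to 4.04 CPM there and at 0 in 5 of 6 astrocyte libraries. Its fitted fold change depends on the prior count and is not given as a size. The promoter of H1f3, the linker gene with the smallest adjusted p, is shown with the 3 motifs searched in capitals (chr13:23554782-23555081, plus strand, RefSeq, GRCm38.p6).
H1f3: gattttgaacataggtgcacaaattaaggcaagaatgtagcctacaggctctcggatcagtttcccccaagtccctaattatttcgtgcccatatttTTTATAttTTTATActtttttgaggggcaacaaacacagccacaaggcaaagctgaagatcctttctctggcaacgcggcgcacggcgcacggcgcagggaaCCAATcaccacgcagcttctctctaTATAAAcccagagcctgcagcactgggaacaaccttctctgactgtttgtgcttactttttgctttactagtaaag

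The motifs were searched on both strands in the RefSeq windows from 250 bases before to 50 bases after the start, the octamer ATTTGCAT, the CCAAT box (CCAAT) and the TATA box (TATAAA). In the H1f3 window, 1 CCAAT match and 3 TATAAA matches stood out in capitals. CCAAT occurred in 7 of 10 H1f windows, in all 17 H2ac, 14 H2bc and 10 H3c windows and in 3 of 11 H4c windows, which is 82.3% of 62 histone windows and 37.9% of 27025 windows of all genes. TATAAA occurred in 54.8% and 14.2%. The octamer, known as a site of the factor OCT1 in H2B promoters, occurred in 6 of 17 H2ac and 6 of 14 H2bc windows and in no H1f, H3c or H4c window, against 1.75% of all windows. A match is a description of the letters and not a bound site.

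**Figure D2:**
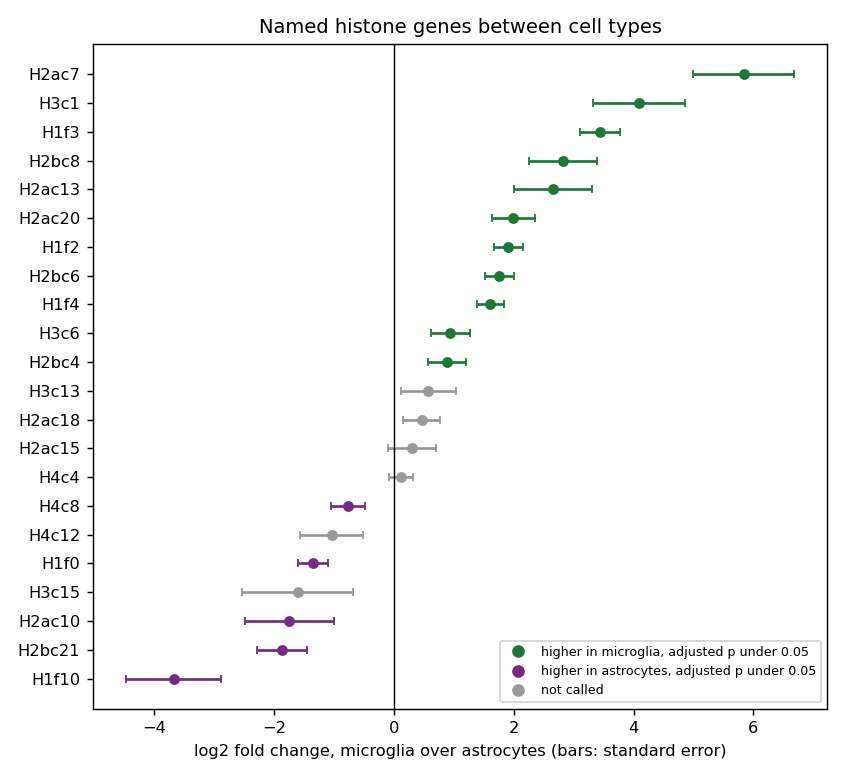
Log2 fold change of microglia over astrocytes for the named histone genes (x axis; bars are the standard error), coloured by the call at an adjusted p under 0.05. H1f2, H1f3, H1f4 and most named H2A and H2B genes lie to the right, and H1f0, H1f10, H2bc21, H2ac10 and H4c8 to the left of 0. The size plotted for H2ac7 depends on the prior count, since 1 astrocyte group is at 0.

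Among the H2A genes, H2ac18 had the most reads and did not differ at the threshold. It ran from 177 through 294.5 to 387 CPM in microglia and from 68.1 through 182 to 278 CPM in astrocytes, with a log2 fold change of 0.46 (SE 0.31, adjusted p = 0.202, edgeR). With the animal as a block, which pairs the 2 libraries of each mouse, the value was 0.58 and the adjusted p was 0.019 (edgeR), and H2ac18 was higher in microglia in 6 of 6 animals. Summed with its copy H2ac19 it gave 0.44 (SE 0.30, adjusted p = 0.219, edgeR). H2ac20 ran from 34.7 through 65.9 to 105 CPM in microglia and from 4.99 through 14.1 to 23.1 CPM in astrocytes, with a log2 fold change of 1.99 (SE 0.36, adjusted p = 2.34e-04, edgeR). H2ac15 differed by 0.30 (SE 0.40, adjusted p = 0.52, edgeR), with overlapping ranges of 20.6 to 53.3 and 4.99 to 42.8 CPM. H2ac10 was lower in microglia, at 0.0837 to 6.28 CPM against 1.37 to 14.4 CPM, with a log2 fold change of -1.75 (SE 0.74, adjusted p = 0.0491, edgeR). Its call was lost with the animal as a block (adjusted p = 0.108, edgeR) and without each animal in turn except KO 3. Leaving out KO 2 brought calls for H2ac15 and H2ac18.

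H2ac7 and H2ac13 belong to the near-identical group of H2ac7, H2ac12, H2ac13 and H2ac22. H2ac7 ran from 2.59 through 11.6 to 19.1 CPM in microglia, and in astrocytes it was at 0 in the 3 WT libraries and at 1.28, 2.51 and 3.72 CPM in KO. It was called higher in microglia (adjusted p = 4.69e-05, edgeR). The fitted size depends on the prior count because a whole group is at 0. In the KO animals alone the log2 fold change was 1.78 (SE 0.74, adjusted p = 0.0713, edgeR) and the call was lost. H2ac13 ran from 11.1 through 15.4 to 22.5 CPM in microglia and from 0 through 2.31 to 11.3 CPM in astrocytes, a log2 fold change of 2.65 (SE 0.65, adjusted p = 0.00248, edgeR). In the WT animals alone it was 0.75 (SE 0.53, adjusted p = 0.258, edgeR). The 4 genes summed into 1 gave a log2 fold change of 1.10 (SE 0.32, adjusted p = 0.00765, edgeR), with 17.3 to 46.4 CPM in microglia and 7.31 to 18.1 CPM in astrocytes. H2ac12 had a log2 fold change of -2.16 against the direction of that sum and was not called (adjusted p = 0.0773, edgeR).

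Among the H2B genes, H2bc4 had the most reads, at 95.2 through 172 to 390.5 CPM in microglia and 65.8 through 99.3 to 104 CPM in astrocytes. Its log2 fold change was 0.88 (SE 0.32, adjusted p = 0.0239, edgeR), with overlapping ranges, and it was called in neither genotype alone. H2bc6 ran from 28.4 through 45.9 to 86.5 CPM and from 8.48 through 12.1 to 14.5 CPM without overlap, which is a log2 fold change of 1.76 (SE 0.24, adjusted p = 1.45e-05, edgeR). H2bc8 was at 16.1 to 39.8 CPM in microglia and 0 to 7.63 CPM in astrocytes, a log2 fold change of 2.82 (SE 0.57, adjusted p = 5.25e-04, edgeR). The copies H2bc23 and H2bc24 summed to 0.75 (SE 0.37, adjusted p = 0.0897, edgeR). H2bc21 was the H2B gene called higher in astrocytes. It ran from 2.06 through 3.69 to 6.59 CPM in microglia and from 4.65 through 12.7 to 16.3 CPM in astrocytes, with a log2 fold change of -1.87 (SE 0.41, adjusted p = 0.001, edgeR), and the opposite order held in 1 of 6 animals.

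H2A and H2B genes often stand head to head on a shared promoter, and 11 such pairs were found among the GENCODE M21 gene starts, 175 to 305 bases apart. In H2ac8 and H2bc8 both genes were called higher in microglia, at log2 fold changes of 2.27 and 2.82, and in H2ac6 and H2bc4 both were too, at 1.77 and 0.88. In the pair of H2ac20 and H2bc21, whose starts are 238 bases apart, both genes were called in opposite directions, at 1.99 and -1.87. H2ac7 was called higher in microglia, with the limit on its size given above, and its partner H2bc7 was at -0.13 (adjusted p = 0.875, edgeR). H2ac13 was called at 2.65 with H2bc13 at -0.14 (adjusted p = 0.927, edgeR). H2ac7 was not called in KO animals alone, nor H2ac13 in WT animals alone. H2ac7, H2bc7, H2ac13 and H2bc13 share 67.1%, 65.8%, 84.6% and 82.8% of their 50-base words with other histone genes. The part of divided reads in the differences within these pairs was not tested. H2bc11 was called at 2.37, and its partner H2ac11 was at 0.40 (adjusted p = 0.759, edgeR). No gene was called in the pairs H2ac12 and H2bc12, H2ac15 and H2bc15, H2ac22 and H2bc22, and H2ac23 and H2bc23, and H2ac1 and H2bc1 had no counts.

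The upstream windows of H2ac20 and H2ac7 are shown because their partners did not share their call, with the limits on H2ac7 given above. Motifs are in capitals (H2ac20, chr3:96220831-96221130, minus strand, and H2ac7, chr13:23574131-23574430, plus strand, both RefSeq, GRCm38.p6).
H2ac20: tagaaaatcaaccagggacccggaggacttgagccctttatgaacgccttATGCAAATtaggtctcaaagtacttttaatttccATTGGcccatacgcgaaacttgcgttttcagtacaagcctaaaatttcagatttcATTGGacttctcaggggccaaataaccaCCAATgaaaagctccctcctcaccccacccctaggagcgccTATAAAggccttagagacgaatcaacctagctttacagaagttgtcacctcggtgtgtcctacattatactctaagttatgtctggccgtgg
H2ac7: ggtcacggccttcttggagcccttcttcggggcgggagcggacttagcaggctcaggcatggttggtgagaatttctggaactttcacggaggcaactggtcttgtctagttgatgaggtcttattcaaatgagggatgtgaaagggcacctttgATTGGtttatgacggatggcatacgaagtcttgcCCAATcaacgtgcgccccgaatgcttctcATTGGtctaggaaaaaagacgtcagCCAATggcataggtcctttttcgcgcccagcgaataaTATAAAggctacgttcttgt

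The window of H2ac20 holds 1 octamer, 3 CCAAT and 1 TATAAA match and reaches past the start of H2bc21. The window of H2ac7 holds 4 CCAAT and 1 TATAAA match and no octamer in these letters. It too reaches past the start of its partner, since the starts of H2ac7 and H2bc7 are 184 bases apart.

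**Figure D3:**
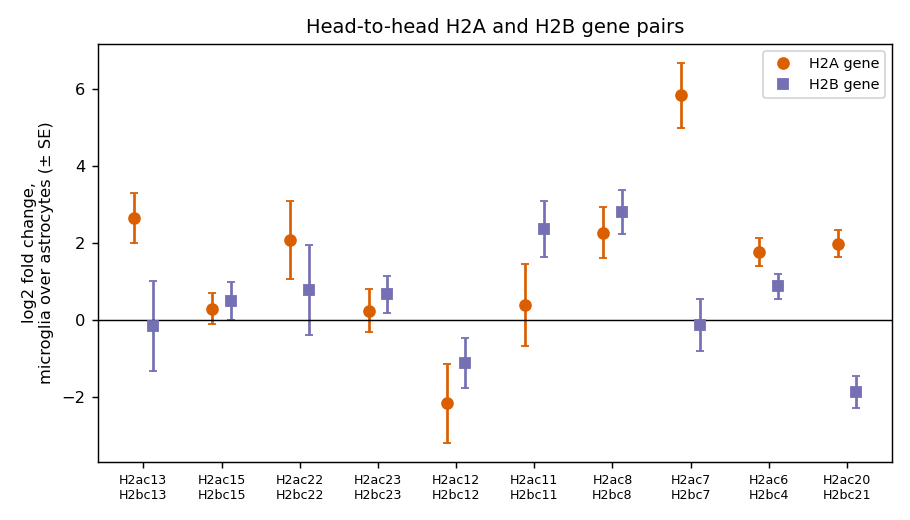
Log2 fold change of microglia over astrocytes (y axis; bars are the standard error) for H2A (circles) and H2B (squares) genes of the 10 head-to-head pairs that were tested. H2ac20 and H2bc21 lie on opposite sides of 0, at 1.99 and -1.87, and the size plotted for H2ac7 depends on the prior count.

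Among the H3 genes, H3c1 ran from 9.96 through 19.8 to 28.9 CPM in microglia and from 0 through 0.779 to 3.35 CPM in astrocytes, with a log2 fold change of 4.09 (SE 0.77, adjusted p = 2.89e-04, edgeR). H3c6 was at 7.72 to 29.8 and 3.49 to 10.4 CPM, which is a log2 fold change of 0.94 (SE 0.33, adjusted p = 0.0233, edgeR), and its call was lost without WT 1 or WT 3 and in either genotype alone. H3c13 did not differ at the threshold (0.57, SE 0.46, adjusted p = 0.294, edgeR), with 10.7 to 40.6 CPM in microglia and 1.85 to 22.6 CPM in astrocytes. H3c14 and H3c15, which share 63.5% of the 50-base words of the gene with fewer, were never both above 0 in a library. H3c13 shares 79.7% of its words with each of them and was not summed with them. H3c14 was at 0 in 10 libraries, at 10.3 CPM in microglia KO 2 and at 18.7 CPM in astrocyte KO 1, and H3c15 was at 0 in exactly those 2 libraries. The sum of both was 8.90, 4.31 and 7.38 CPM in microglia WT, 10.9, 10.3 and 4.89 CPM in microglia KO, 15.6, 14.2 and 4.99 CPM in astrocyte WT and 18.7, 35.6 and 16.95 CPM in astrocyte KO. In the sum, both libraries lay within the range of the other libraries of their cell type. The summed genes were lower in microglia, with a log2 fold change of -1.43 (SE 0.39, adjusted p = 0.00516, edgeR). H3c15 alone was not called (-1.61, SE 0.93, adjusted p = 0.144, edgeR), other than without KO 1 or without a filter on low counts.

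**Figure D4:**
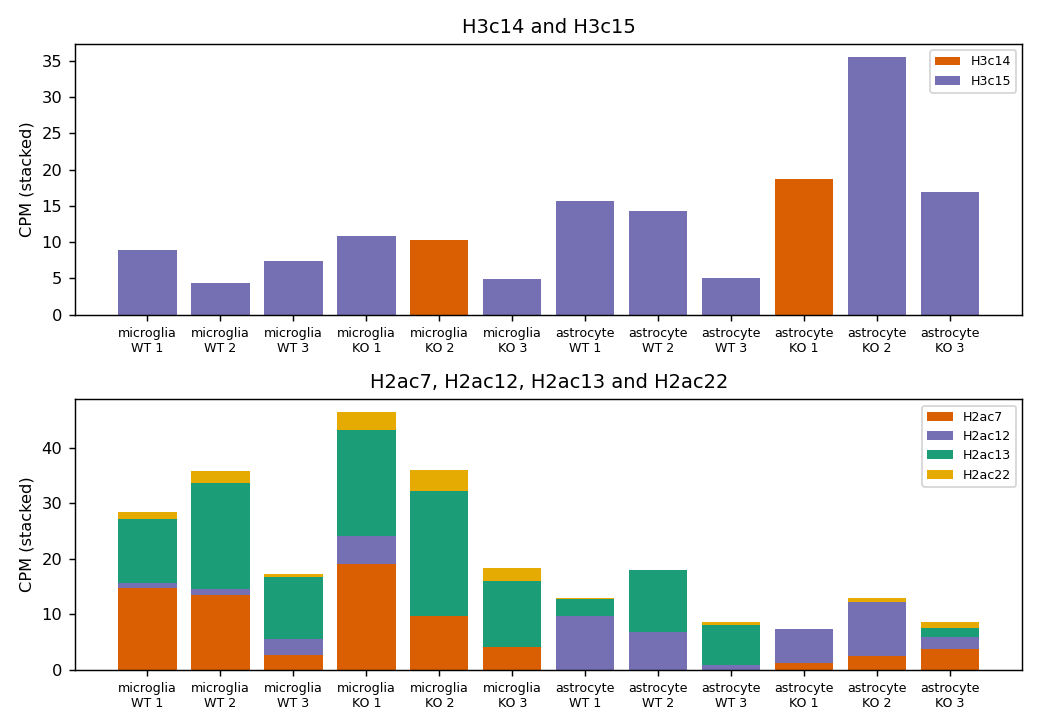
CPM of genes with shared sequence, stacked by library (y axis), with H3c14 and H3c15 above and H2ac7, H2ac12, H2ac13 and H2ac22 below. Each library holds reads on either H3c14 or H3c15 and never on both, and the 3 astrocyte WT libraries hold none on H2ac7.

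Among the H4 genes, H4c4 had the most reads and did not differ at the threshold, at 22.5 to 63.6 CPM in microglia and 21.4 to 36.4 CPM in astrocytes (log2 fold change 0.11, SE 0.20, adjusted p = 0.641, edgeR). H4c8 was lower in microglia, at 13.7 through 21.5 to 30.3 CPM against 12.4 through 29.8 to 47.2 CPM in astrocytes (-0.77, SE 0.28, adjusted p = 0.0272, edgeR). The ranges overlapped, and the call was lost with the animal as a block (-0.66, adjusted p = 0.058, edgeR) and without each animal in turn except WT 3. H4c12 was at 4.26 to 25.8 CPM in microglia and 7.26 to 41.0 CPM in astrocytes (-1.04, SE 0.53, adjusted p = 0.0965, edgeR), and with the block the adjusted p was 0.042 (-0.97, edgeR). Higher in microglia were H4c1, at 4.49 to 11.8 against 1.22 to 2.68 CPM (1.78, SE 0.41, adjusted p = 0.00156, edgeR), H4c9 and H4c18. H4c18 summed with its near-identical copy H4c17 gave 1.14 (SE 0.26, adjusted p = 0.00138, edgeR). H4c18 alone was not called with the animal as a block, nor without WT 1, WT 3 or KO 1.

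Genotypes were also fitted apart. In WT animals 17 of 55 histone genes tested were called between the cell types (52.8% of all genes) and in KO animals 14 of 57 (52.3% of all genes). Of these, 9 were called in both, all with the same sign. They were H1f0, lower in microglia, and 8 genes higher in microglia, namely H1f2, H1f3, H1f4, H2ac20, H2bc6, H2bc8, H2bc18 and H3c1. Of 54 histone genes tested in both, 49 had the same sign.

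Genes known to act on histones or beside them were read from lists in the same fit, in which 28.2% of all genes tested were higher in microglia, 36.4% were higher in astrocytes and the median log2 fold change was -0.19. Among 10 replacement histone genes, which are expressed outside S phase, 2 were higher in microglia and 3 in astrocytes, with a median log2 fold change of -0.53. H3f3b, 1 of the genes of H3.3, was at 565 ± 105 and 157 ± 28.0 CPM (SD, n = 6; log2 fold change 1.54, adjusted p = 1.63e-05, edgeR), and Macroh2a1 was higher in microglia as well (1.20, adjusted p = 5.02e-06, edgeR). H3f3a, another gene of H3.3, was called in the opposite direction (-0.49, SE 0.16, adjusted p = 0.0147, edgeR). It was at 110 ± 24.2 CPM in microglia and 124.5 ± 10.6 CPM in astrocytes (SD, n = 6). H2az2 was lower in microglia (-3.66, adjusted p = 3.51e-07, edgeR), as was Macroh2a2 (-4.10, adjusted p = 5.73e-05, edgeR). Of 17 genes tested from a list for histone mRNA 3' end processing, 8 were higher in microglia and 3 in astrocytes (median 0.49). The list also holds genes of the cleavage and polyadenylation of other mRNAs, Cpsf1 among them. Eri1, an exonuclease that trims the stem-loop, had the smallest adjusted p (1.64, adjusted p = 6.16e-05, edgeR). Next came Cpsf1 (1.10, adjusted p = 8.72e-05, edgeR), Cpsf2 (1.13, adjusted p = 1.77e-04, edgeR) and Srrt (1.11, adjusted p = 4.37e-04, edgeR).

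Of 17 histone chaperone genes, 7 were higher in microglia and 2 in astrocytes, against 28.2% and 36.4% of all genes tested (median 0.34, against -0.19 over all genes). Set (1.14), Ubn1 (1.14), Daxx (1.76) and Cabin1 (0.75) had the smallest adjusted p among them. Of 26 S phase and proliferation genes, 10 were higher in microglia and 0 in astrocytes (median 1.15), beside the same 28.2% and 36.4% of all genes tested. Their summed level was 474 ± 57.3 CPM in microglia and 158 ± 24.3 CPM in astrocytes (SD, n = 6). Mcm3, Mcm2 and Mcm6, subunits of the replicative helicase, had log2 fold changes of 3.50, 2.71 and 1.83, and Mcm5, another subunit, was at 36.01 and 3.91 CPM. Whether the S phase genes have a part in the histone difference was not tested.

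The level of histone reads was then set against Rpph1, the RNA component of RNase P, which has no poly(A) tail. Rpph1 varied widely among the libraries, at 22800, 53022 and 11597 CPM in microglia WT 1 to 3, 50226, 25723 and 14036 CPM in microglia KO, 48832, 76210 and 9981 CPM in astrocyte WT and 49504, 98859 and 15045 CPM in astrocyte KO. These values are 0.998 to 9.89% of all counts. The third library of every group was the lowest in Rpph1, as it was in summed histone reads. Slopes below are the change in log2 histone level per unit of log2 Rpph1 CPM, fitted by edgeR with the genotype as a covariate within each cell type.

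In microglia, H2bc4 rose with Rpph1. It was at 162, 305.5 and 95.2 CPM in WT 1 to 3 and 390.5, 182 and 114 CPM in KO 1 to 3, which is the order of Rpph1 in both genotypes. The slope was 0.87 (SE 0.10, adjusted p = 0.00597, edgeR over 14230 genes), and it was the only call among 55 histone genes tested (1.82%, against 0.0703% of all genes). Without KO replicate 3 the slope was 0.83 and the adjusted p was 0.109 (edgeR). At an unadjusted p under 0.05, 14 of 55 histone genes passed (25.5%, against 12.7% of all genes). Without a filter on low counts 10 of 65 were called (1.48% of all genes), 9 of them with a positive slope.

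In astrocytes 3 of 53 histone genes rose with Rpph1 (5.66%, against 1.22% of 15702 genes). H2ac18 was at 182, 184 and 68.1 CPM in WT and 183, 278 and 118 CPM in KO, with a slope of 0.58 (SE 0.08, adjusted p = 0.00385, edgeR). Summed with H2ac19 the slope was 0.58 (SE 0.08, adjusted p = 0.00291, edgeR). H2ac15 was at 17.4, 20.6 and 4.99 CPM in WT and 20.2, 42.8 and 13.6 CPM in KO, with a slope of 0.75 (SE 0.14, adjusted p = 0.0192, edgeR). H4c8 was at 31.2, 28.3 and 12.4 CPM in WT and 35.4, 47.2 and 22.9 CPM in KO, with a slope of 0.51 (SE 0.11, adjusted p = 0.042, edgeR). In all 3 genes the third library was the lowest of its genotype. Without WT replicate 3 the adjusted p was 0.108, 0.226 and 0.506 for H2ac18, H2ac15 and H4c8, and without KO replicate 3 it was 0.229, 0.342 and 0.743 (edgeR). Without KO replicate 2 it was 0.124 for H2ac15 and 0.148 for H4c8, and without WT replicate 1 it was 0.0761 for H4c8 (edgeR). At an unadjusted p under 0.05, 13 of 53 histone genes passed (24.5%, against 10.6% of all genes). Without a filter 11 of 65 were called (2.22% of all genes), 10 of them with a positive slope.

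The signs of the slopes were counted in both cell types. Of the 48 histone genes tested in both cell types, 28 (58.3%) had a positive slope in both, against 27.1% of 13083 genes, and 8 (16.7%) had a negative slope in both, against 33.6%. The difference of these shares was not tested. The libraries of the 2 cell types come from the same animals, so these are not independent. By class, the median slope was 0.45 in microglia and 0.46 in astrocytes for H2ac genes, 0.21 and 0.28 for H2bc genes, 0.21 and 0.16 for H3c genes, 0.12 and 0.15 for H4c genes and 0.10 and 0.13 for H1f genes, and -0.02 over all genes in both. H1f3 had slopes of -0.37 (SE 0.20) in microglia and -0.09 (SE 0.17) in astrocytes, H1f2 had 0.32 (SE 0.16) and 0.24 (SE 0.08), and H1f4 had 0.10 (SE 0.13) and 0.28 (SE 0.09), none of them called. H3c13 had 0.81 (SE 0.16, adjusted p = 0.0781, edgeR) and 0.79 (SE 0.19, adjusted p = 0.0765, edgeR). Of the replacement histone genes, which are outside the set examined, H2aj rose with Rpph1 in both cell types. Its slope was 0.86 (SE 0.13, adjusted p = 0.0306, edgeR) in microglia and 0.64 (SE 0.10, adjusted p = 0.0108, edgeR) in astrocytes. H2az2 was called in astrocytes only (0.55, SE 0.09, adjusted p = 0.00782, edgeR), and no other replacement histone gene tested was called.

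**Figure D5:**
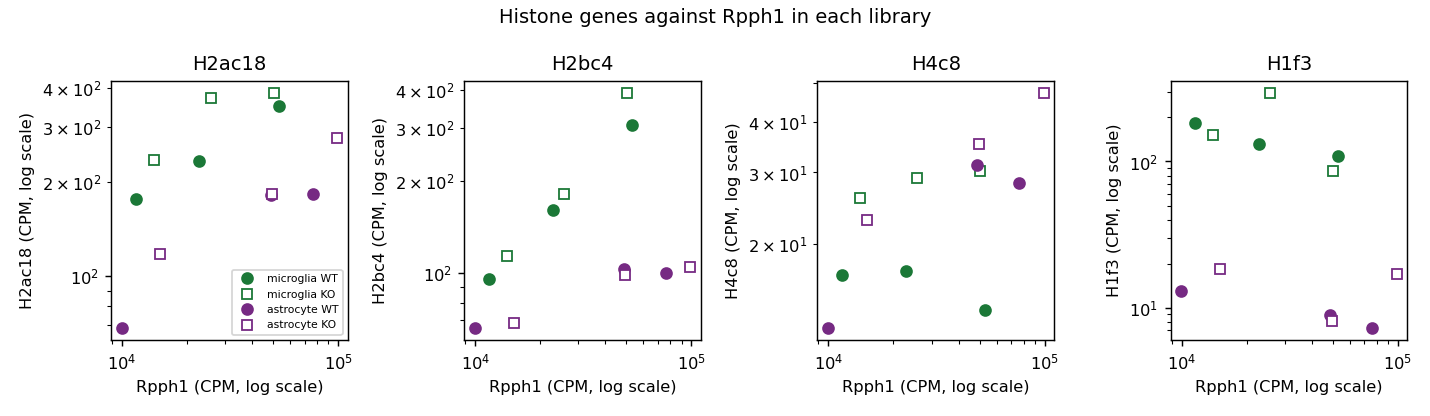
CPM of H2ac18, H2bc4, H4c8 and H1f3 (y axes, log scale) against CPM of Rpph1 (x axes, log scale) in the 12 libraries, with circles for WT, squares for KO, green for microglia and purple for astrocytes. H2bc4 rises with Rpph1 in microglia and H2ac18 and H4c8 in astrocytes, and no slope of H1f3 was called.

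Rpph1 did not stand for all RNAs of its kind. Rn7sk, Rn7s1, Rn7s2 and Rmrp also lack a poly(A) tail, and summed they were at 12112, 12898 and 33317 CPM in microglia WT and 15709, 36281 and 40020 CPM in microglia KO, highest in the third libraries. Rn7s2 fell with Rpph1 in microglia (slope -0.76, SE 0.10, adjusted p = 0.0143, edgeR). With this sum in place of Rpph1, the slope of H2bc4 in microglia was -1.03 (adjusted p = 0.0323, edgeR). In astrocytes it was -0.85 for H2ac18, -0.87 for H2ac15 and -0.83 for H4c8, with none of the 3 called. None of the 5 RNAs was called between the cell types (Rpph1 -1.13, SE 0.56, adjusted p = 0.0911; Rn7sk 0.45, SE 0.30, adjusted p = 0.205, edgeR), and Rn7s1, Rn7s2 and Rmrp had log2 fold changes of -0.56, -0.46 and 0.59. What makes libraries differ in Rpph1 was not tested.

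The genotype comparison chose the genes, so its calls are listed only to show what was used, and nothing is read from them. edgeR gave 0 among 55 histone genes in microglia and 0 among 52 in astrocytes (0% of all genes in both). DESeq2 gave 0 in microglia (0.289% of all genes) and 1 in astrocytes (H2ac7, 0.0254%), and edgeR with no filter on low counts gave 1 in each (H3c14, 0.499% and 0.0738%). For the difference between the genotype effects of the cell types edgeR gave 0 (0% of all genes), DESeq2 gave 1 (H2ac7, 0.325%) and edgeR with no filter gave 2 (H2ac7 and H2ac13, 0.604%). Log2 fold changes of KO over WT were above 0 for 43 of 55 histone genes in microglia and 46 of 52 in astrocytes (49.9% and 49.4% of all genes), with medians of 0.31 and 0.56. In microglia 9 genes were higher in every KO than in every WT library (6.53% of all genes), and in astrocytes 7 were higher (2.39%) and 2 lower (5.74%).

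Summed H4c reads were at 95.7, 115 and 108 CPM in microglia WT and 198, 164 and 157 CPM in microglia KO, and did not overlap. In astrocytes they were at 105, 114 and 60.4 CPM in WT and 104, 148 and 107 CPM in KO and did overlap. H4c8 in microglia was at 17.1, 13.7 and 16.7 CPM in WT and 30.3, 29.1 and 25.9 CPM in KO. Summed H3c reads in astrocytes were at 46.1, 36.2 and 23.04 CPM in WT and 68.2, 91.8 and 53.2 CPM in KO, without overlap, and in microglia at 90.9, 81.8 and 55.2 and at 129, 128 and 63.2 CPM, with overlap. No histone gene was without overlap in the same direction in both cell types.

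The 3 genes that prompted the choice share much of their sequence with other histone genes. H2ac7 in astrocytes was at 0 in every WT library and at 1.28, 2.51 and 3.72 CPM in KO. With each WT library set to a floor of 3 counts, the group means differ 11.3-fold. This is not a lower bound, since a value of 0 can also come from the division of reads among copies. H2ac13 in the same libraries was at 2.95, 11.3 and 7.25 CPM in WT and at 0, 0 and 1.67 CPM in KO, the opposite order. The sum of H2ac7, H2ac12, H2ac13 and H2ac22 was at 12.9, 18.1 and 8.68 CPM in WT and 7.31, 12.8 and 8.60 CPM in KO, which overlap. H3c14 had counts in 2 KO libraries only, and in those H3c15 had none. In the sums, KO minus WT on the log2 scale in astrocytes was -0.32 (SE 0.46) for the H2A group and 1.19 (SE 0.51) for H3c14 and H3c15, and in microglia it was 0.29 (SE 0.35) and 0.32 (SE 0.46), given as a description.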

How the data were processed

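RNA-seq was made from 12 libraries of sorted microglia and astrocytes with a full-length cDNA kit, per the labels' protocols. The deposited values are estimated counts per gene, made by the authors with STAR 2.7.10b and RSEM 1.3.3 on GRCm39 (limma is named too), per the submitters' processing notes. Annotation and strand setting: not given in the sources used here. Further, PCR copies were not marked by molecular identifiers. Estimated counts were rounded to whole numbers. CPM is counts over the library total.

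Tests used edgeR 4.0.16 in R 4.3.3 (TMM scaling, filterByExpr with a minimum count of 10, quasi-likelihood test, Benjamini-Hochberg adjustment over all genes tested, threshold 0.05). Cell types were compared over all 12 libraries, genotypes within 6, and slopes on Rpph1 within 6 with genotype as a covariate. The scripts were tested on simulated data. Alternatives were DESeq2 1.42.0, other filters and scalings, blocks, thinning, single genotypes and each animal left out. Sums of near-identical genes were added after the data were seen. The histone genes and the lists were chosen with earlier results of these data known. Libraries are labelled as replicates, and 3 per group limits precision.

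Named were H2ac7, H3c14 and H2ac13, the 3 genes of each class with the highest mean CPM, up to 8 genes per direction by adjusted p between cell types, 4 per list, the 5 RNAs without a poly(A) tail, and genes called with Rpph1. Other genes were named after their values were seen, as members of head-to-head pairs, of near-identical groups, of classes or of the gene and marker lists.

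By the labels' animal numbers, microglia and astrocyte libraries of 1 number share an animal. Across genes, the departures of such pairs from their group means correlated at 0.017, 0.078 and 0.093 in WT and 0.062, 0.002 and 0.055 in KO. Blocked values are given where they change a call, and the block changed no other call of a named gene. RefSeq and GENCODE M21 are on GRCm38, so they gave sequences, chromosomes and neighbours only. Sequence words were 50 bases long, and genes sharing at least 80% were summed, as were H3c14 with H3c15 and H2bc23 with H2bc24.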

Additional observations from a re-analysis of the deposited data

How the results depend on the processing

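The 22 named histone fold changes between cell types kept their direction and call in 334 of 370 alternatives, lost the call in 27, gained it in 8 and reversed in 1 (H4c4, -0.08 in WT animals alone). The count of 26 was 17 in WT and 14 in KO animals alone, where fewer libraries were tested, and 24 to 28 with 1 animal left out. The count of 21 higher in microglia was 12 in KO animals alone and 20 to 24 with 1 animal left out. The count of 5 higher in astrocytes was 10 without a filter, 2 in WT and 2 in KO animals alone, and 3 to 6 with 1 animal left out (3 without WT replicate 2 or KO replicate 2). The summed ratio of 2.40 was 1.996 with TMM totals, 1.95 without the 8 abundant RNAs, and 2.29 to 2.45 with 1 animal left out.

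The genotype counts of 0 became 1 without a filter in microglia, 1 with DESeq2 and 1 without a filter in astrocytes, and 1 with DESeq2, 2 without a filter and 0 to 1 with 1 replicate left out (1, H2ac13, without KO replicate 3) for the difference between cell types, and nothing is read from these counts. With the replicate number as a block, the genotype counts were 0 in both cell types. WT and KO libraries share only a number (correlations of 0.134, 0.051 and 0.197 in microglia and -0.021, 0.049 and 0.231 in astrocytes).

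The Rpph1 count of 1 in microglia was 10 without a filter, 2 with Rn7sk, Rn7s1, Rn7s2 and Rmrp in its place, and 0 to 9 with 1 library left out (9 without WT replicate 1, 5 without WT replicate 2, 3 without KO replicate 2, 0 without KO replicate 3). The count of 3 in astrocytes was 11 without a filter, 6 without the genotype term, 0 with the other RNAs, and 0 to 5 with 1 library left out (1 without WT replicate 3, 5 without KO replicate 1, 1 without KO replicate 2, 0 without KO replicate 3). With the other RNAs the slopes reversed, to -1.03 for H2bc4, -0.85 for H2ac18, -0.87 for H2ac15 and -0.83 for H4c8. The cause of these changes was not tested. The 3 libraries per group and the low counts of many histone genes limit which differences were detectable.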
